A study of Rattus norvegicus with 40 samples.

Results

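The genes of the complement and lectin pathways were followed in the livers of rats given diethylnitrosamine (DEN), a chemical that damages hepatocyte DNA and causes liver tumors. A list of 37 gene symbols (complement components, their regulators and receptors, and the collectins and ficolins that start the lectin pathway) was looked up in the gene counts, and 34 of these symbols were found among the 17337 genes counted. C5, C7 and Colec11 were not analysed here. By the cell that is generally known to make most of each product in liver, the 34 genes were divided into 21 hepatocyte-made genes, 6 macrophage-made genes (C1qa, C1qb, C1qc, Cfp, C3ar1 and C5ar1) and 7 genes of several or other cell types (Fcna, Fcnb, Colec10, Cfd, Cd55, Cd59 and Clu).

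Messenger RNA of whole tissue pieces from 24 male Fischer 344 rats was sequenced in 40 libraries, with 4 rats in each group. The rats entered at 7 weeks of age and received intraperitoneal DEN at 50 mg/kg every week. Non-tumoral (NT) liver was taken after 8 weeks of injections, after 14 weeks, and at 20 weeks, when 14 weeks of injections had been followed by 6 weeks without DEN. At 14 and 20 weeks 2 tumor nodules of each DEN-treated rat were also sequenced, and their counts were added to give 1 nodule value for each rat. Age-matched rats that received no DEN (no DEN) served as the control at each of the 3 times. The model is driven by a chemical given to adult animals of an inbred strain and carries no transgene, and the untreated rats share strain, sex and age with the treated ones. NT liver and nodules at a given time were compared with the same 4 no DEN rats, so those comparisons share their controls.

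Complement is a set of plasma proteins that, once started, cut each other in a cascade. C1q bound to antibody starts the classical pathway through the proteases C1r and C1s, mannose-binding lectins, ficolins and collectins start the lectin pathway through the proteases MASP-1 and MASP-2, and both lead to the cleavage of C4, C2 and then C3. Factor B, factor D and properdin amplify C3 cleavage, C5 to C9 build the pore called the membrane attack complex, and the small fragments C3a and C5a call in and activate leukocytes through the receptors C3aR1 and C5aR1. The liver is the main source of these plasma proteins, while C1q and properdin come from macrophages and other myeloid cells.

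Between 20528515 and 160622633 read pairs were counted per library (median 30477421), and the 34 genes held 2.55% to 3.47% of them. The highest number was that of NT liver of rat H26 at 20 weeks, and the next highest was 39355849. Gstp1, the placental glutathione transferase that marks preneoplastic rat hepatocytes, was higher in NT liver and nodules than in no DEN liver at every time (log2 fold changes of 3.65 to 8.18), in the direction of the labels. All 10 hepatocyte markers looked at were present in every group, and their summed level was 263304 to 296773 CPM (TMM-scaled counts, as a rate of all counts of a library) in no DEN liver at 14 weeks and 153993 to 187501 in nodules. Of the 34 genes in 8 groups, 12 of 21 values that stood far from the other 3 rats of their group belonged to rat F06 at 14 weeks, and its nodule libraries had the 2 highest shares of read pairs outside annotated exons (34.5% and 28.2%, against a median of 23.9%). Counts at 14 weeks are therefore also given without that rat. In whole tissue, fewer cells of a type and less RNA per cell cannot be told apart.

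Among the genes that were called, those made by hepatocytes were lower with DEN and those made by macrophages were higher. A gene was called where the quasi-likelihood F test of edgeR gave a Benjamini-Hochberg adjusted p of at most 0.05 over all genes tested and its log2 fold change was 0.5 or more in either direction. None of the 21 hepatocyte-made genes was called higher and none of the 6 macrophage-made genes was called lower than in no DEN liver in any of the 5 comparisons with it. Clu, a secreted regulator, was sorted with the genes of several or other cell types. It could also be counted with the hepatocyte-made genes, and its log2 fold change was above 0 in all 5 comparisons, without a call. Over those comparisons 19 genes were called lower at least once, 10 were called higher at least once, 5 (C2, Cfi, Fcna, Cd59 and Clu) were never called, and no gene was called both ways. Of the 11394 genes tested at least once, 19.7% were called lower at least once, 30.4% higher at least once and 50.1% never, and 16 were called both ways.

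In NT liver at 8 weeks, 4 of the 33 genes tested were higher and 4 lower than in no DEN liver, where 16.5% of all genes tested were called higher and 5.21% lower. At 14 weeks 4 of 34 were higher and 10 lower, against 22.8% and 9.85% of all genes. At 20 weeks, after 6 weeks without injections, 4 of 33 were higher and 2 lower, against 14.3% and 3.82%. In nodules 7 of 34 genes were higher and 18 lower than in no DEN liver at 14 weeks, when 23.9% of all genes were called higher and 15.2% lower. At 20 weeks 7 were higher and 15 lower in nodules, with 23.6% higher and 15.2% lower among all genes. The counts of higher members were the less steady ones. At 8 weeks 8 were higher without rat H05 and 7 without H17 (4 with all rats), and 2 were lower without H07 (3.53% of all genes); at 14 weeks 2 were higher in NT liver without H09, and 3 in nodules without H09 or H10. At 20 weeks the number of higher members in NT liver was 1 without F03, 2 without H14, H15, H16 or H28 and 7 without H25, and in nodules it was 3 without F03 or H15, 2 without H14 and 1 without H16. Without rat F06, 3 genes were higher and 13 lower in NT liver at 14 weeks, and 6 were higher and 19 lower in nodules, where 11.6% and 15.7% of all genes were lower. With 1 rat left out, the share of all genes called higher ranged from 14.0% to 17.7% at 8 weeks, 21.8% to 23.1% at 14 weeks and 9.18% to 15.1% at 20 weeks in NT liver, and from 21.2% to 25.8% and 20.7% to 24.5% in nodules. The counts of higher genes in NT liver at 14 weeks and in nodules include Cd55, which passed the filter on low counts only through the treated rats.

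The median log2 fold change of the 21 hepatocyte-made genes was -0.29, -0.53 and -0.16 in NT liver at 8, 14 and 20 weeks, and -0.86 and -0.66 in nodules at 14 and 20 weeks. For the 6 macrophage-made genes it was 0.55, 0.50, 0.60, 0.63 and 0.54 in the same order. All genes tested had medians of -0.01 to 0.02, so the scale was centred close to no change in each comparison.

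**Figure D1:**
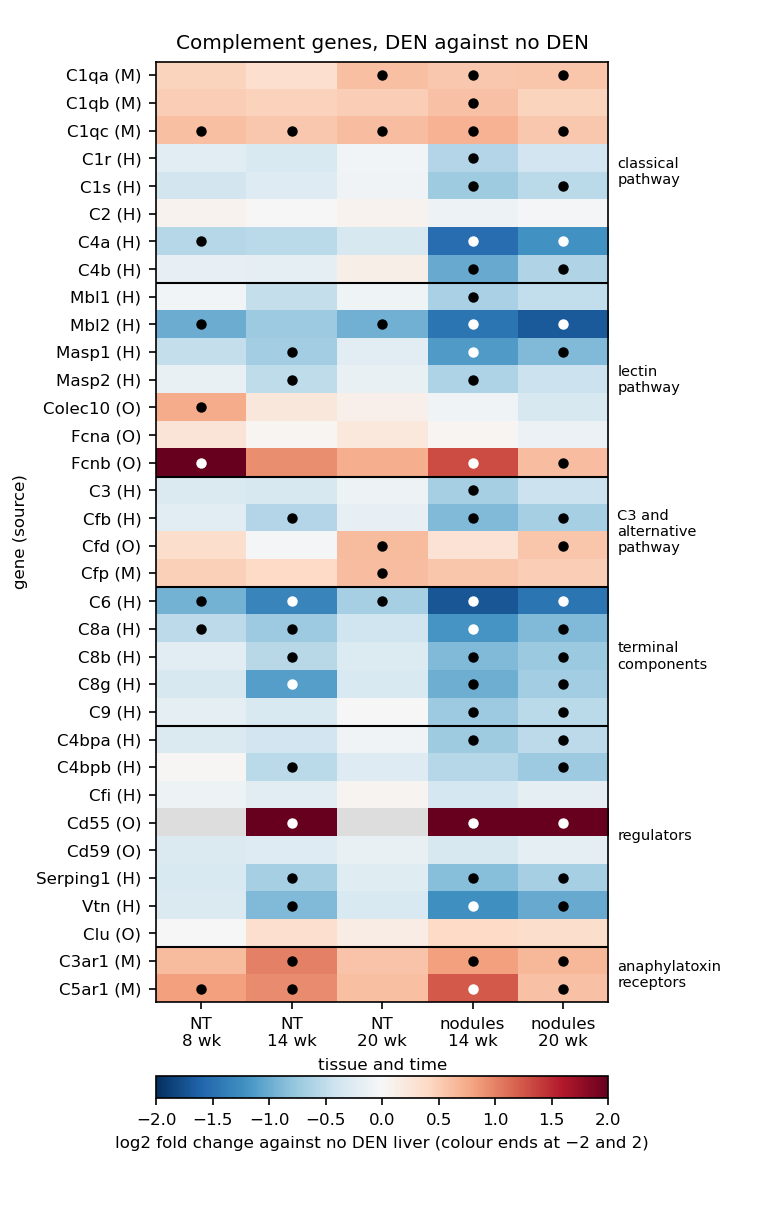
Log2 fold change of each of the 34 genes against no DEN liver of the same age, by colour, for NT liver at 8, 14 and 20 weeks and nodules at 14 and 20 weeks; dots mark genes that were called, grey cells were not tested, and H, M and O stand for hepatocyte-made, macrophage-made and other. The terminal components are blue in both nodule columns, C6 is the darkest of them in all 5 columns, the C1q genes and the receptors are red in all 5 columns, and values beyond -2 or 2 (Fcnb at 8 weeks and Cd55) are drawn at the end of the scale.

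The terminal components, which form the membrane attack complex, fell together in nodules: C6, C8a, C8b, C8g and C9 were all called lower at both times. Of all genes tested, 15.2% were called lower in nodules at 14 and at 20 weeks. C6, the component that binds C5b first, was lower at every time and in both tissues. The 4 rats had C6 at 448, 521, 451 and 537 CPM in no DEN liver at 14 weeks, 265, 159, 160.3 and 184 CPM in NT liver and 177, 126, 143 and 158 CPM in nodules. Both DEN tissues lay wholly below the no DEN rats, and the highest NT and the highest nodule value belonged to rat F06. The C6 log2 fold change was -1.32 ± 0.16 (SE; 4 rats per group, edgeR adjusted p = 1.17e-04) in NT liver and -1.72 ± 0.13 (edgeR adjusted p = 1.77e-05) in nodules, that is 0.402 and 0.304 times the no DEN level. At 8 weeks C6 was 279.8, 287, 276 and 304 CPM in NT liver against 642, 436, 656 and 459 CPM without DEN, a log2 fold change of -0.94 ± 0.13 (edgeR adjusted p = 5.83e-04). At 20 weeks it was 319, 425, 381 and 383 CPM without DEN, 245, 196, 199 and 300.4 CPM in NT liver and 137, 181, 125 and 114 CPM in nodules, with log2 fold changes of -0.67 ± 0.15 (edgeR adjusted p = 0.00898) and -1.46 ± 0.16 (edgeR adjusted p = 1.24e-04). Treated and no DEN rats did not overlap at any of these times, and at this threshold the calls held in each of the 13 to 15 alternatives tried per comparison.

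C8 is built from the chains of C8a, C8b and C8g, the last of which is a lipocalin not needed for the pore itself. C8a was 1427, 1218, 1275 and 1245 CPM without DEN at 14 weeks, 890.2, 749, 697 and 695 CPM in NT liver and 543, 608, 536 and 622 CPM in nodules, so that all 3 groups were separate. Its log2 fold change was -0.73 ± 0.10 in NT liver (edgeR adjusted p = 1.85e-04) and -1.18 ± 0.10 in nodules (edgeR adjusted p = 2.71e-05). It was also called lower at 8 weeks (-0.53 ± 0.09) and in 20-week nodules (-0.88 ± 0.14), and at 20 weeks NT liver had -0.40 ± 0.09 (edgeR adjusted p = 0.00848), short of the fold threshold. C8g was 239, 314, 281 and 279.8 CPM without DEN at 14 weeks, 152, 107, 109.6 and 137 CPM in NT liver and 223, 106, 119 and 126 CPM in nodules, where rat F06 stood well above the other 3. C8g had a log2 fold change of -1.10 ± 0.13 (edgeR adjusted p = 6.79e-05) in NT liver, -0.97 ± 0.23 (edgeR adjusted p = 0.00703) in nodules at 14 weeks and -0.70 ± 0.24 (edgeR adjusted p = 0.0294) in nodules at 20 weeks. C8b was called lower in NT liver at 14 weeks (-0.56 ± 0.10) and in nodules at both times (-0.88 ± 0.08 and -0.74 ± 0.14), whereas C9, the chain that polymerizes into the ring of the pore, was called only in nodules (-0.73 ± 0.10 and -0.55 ± 0.14). In NT liver C9 had log2 fold changes of -0.18, -0.31 and -0.01, none of which was called. Some of these calls rested on single rats: C8a at 8 weeks was lost without H07 (-0.48), C8g in 20-week nodules without H14, H15, H16 or H26 (edgeR adjusted p = 0.0512 to 0.0803, and with nodule 1 alone -0.42 and 0.260), and C9 in 20-week nodules without H26 or H28 (both -0.50).

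**Figure D2:**
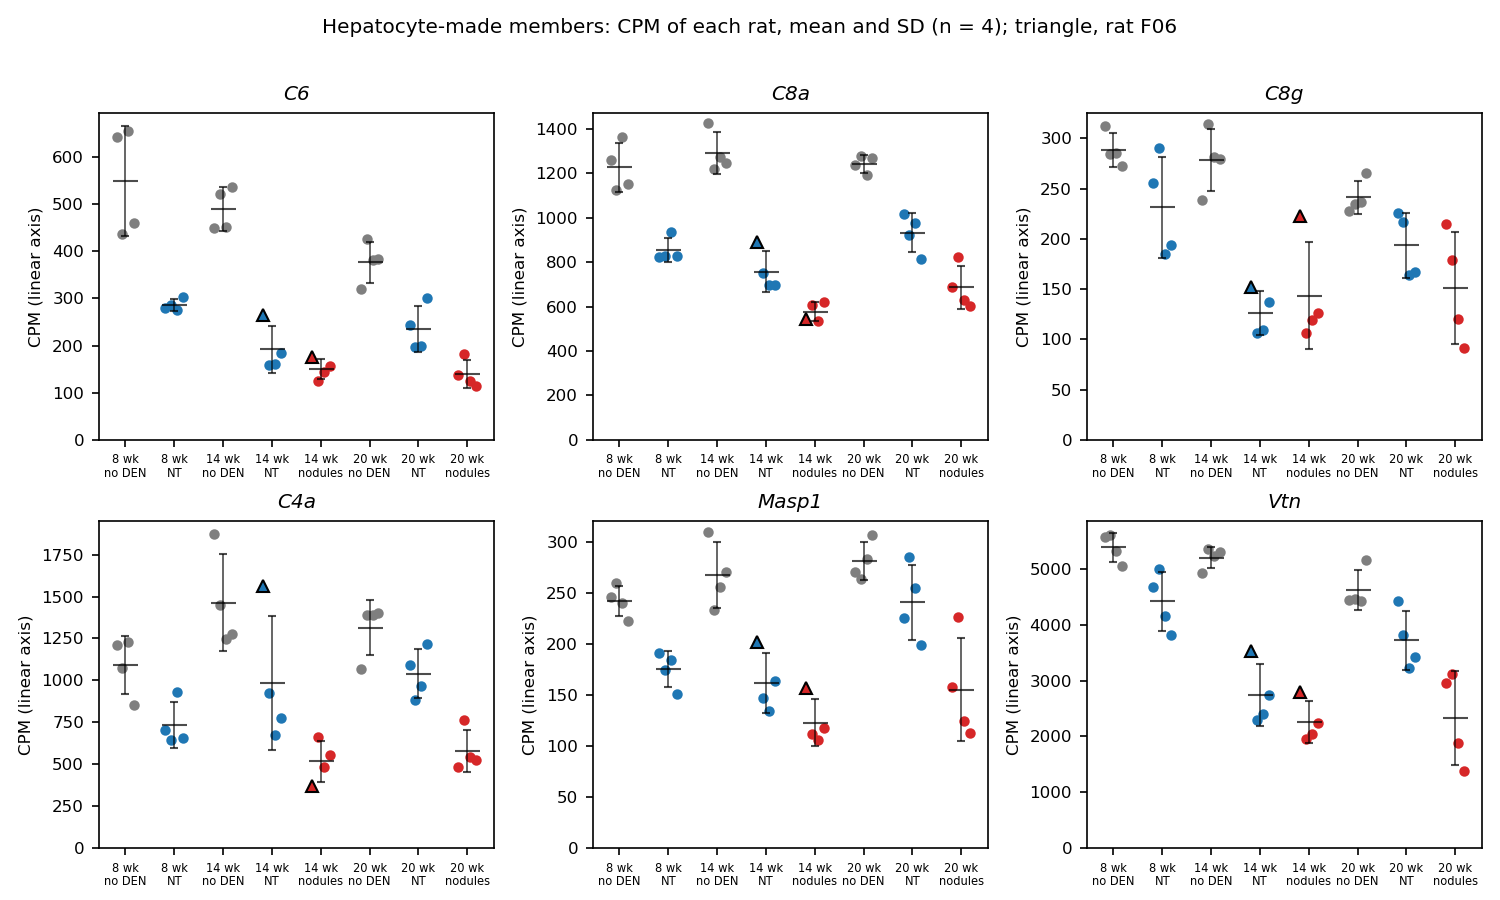
CPM of C6, C8a, C8g, C4a, Masp1 and Vtn in each of the 4 rats of the 8 groups (points, grey for no DEN, blue for NT liver, red for nodules), with the mean and SD as a bar and rat F06 as a triangle; every axis starts at 0. At each time the no DEN rats lie above every treated rat for C6, with 448 to 537 CPM at 14 weeks against 159 to 265 CPM in NT liver and 126 to 177 CPM in nodules.

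Promoters of these genes were read from RefSeq (rat assembly GRCr8) as the 250 bases before the annotated start, and 22 of the 34 genes matched that table. The upstream stretches of the terminal components C6, C8a and C8b, which were called lower in nodules at both times, and of C1qa and C1qb, called higher in 3 and 1 of the 5 comparisons with no DEN liver, are printed here 5′ to 3′ to set hepatocyte-made beside macrophage-made genes. C1qc and C5ar1, called higher in 5 and 4 of them, had no match in the table. Capitals mark exact matches, on either strand, of 5 short motifs. A half-site of the hepatocyte factor HNF1 was searched as GTTAAT and a C/EBP-type site as TTGCNNAA. STAT sites were searched as TTCNNNGAA, and sites of the ETS family to which the myeloid factor PU.1 belongs were looked for as GAGGAAG. The TATA box was taken as the exact letters TATAAA, and no marked match overlapped another in the 5 stretches shown.
C6, chr2:55573383-55573632 (plus strand): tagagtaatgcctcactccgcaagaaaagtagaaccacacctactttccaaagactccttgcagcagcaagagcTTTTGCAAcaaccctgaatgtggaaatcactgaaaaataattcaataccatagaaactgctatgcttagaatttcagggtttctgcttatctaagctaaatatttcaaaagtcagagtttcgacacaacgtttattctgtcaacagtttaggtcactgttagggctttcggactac
C8a, chr5:124866632-124866881 (minus strand): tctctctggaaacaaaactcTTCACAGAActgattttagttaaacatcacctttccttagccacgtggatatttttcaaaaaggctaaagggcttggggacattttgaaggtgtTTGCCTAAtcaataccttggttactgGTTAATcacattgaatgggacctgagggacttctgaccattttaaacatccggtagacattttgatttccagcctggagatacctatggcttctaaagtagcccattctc
C8b, chr5:124763864-124764113 (plus strand): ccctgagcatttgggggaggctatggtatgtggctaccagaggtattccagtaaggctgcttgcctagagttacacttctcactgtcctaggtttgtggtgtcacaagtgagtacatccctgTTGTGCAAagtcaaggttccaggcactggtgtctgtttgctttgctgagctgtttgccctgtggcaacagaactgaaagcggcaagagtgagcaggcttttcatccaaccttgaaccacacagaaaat
C1qa, chr5:154419934-154420183 (minus strand): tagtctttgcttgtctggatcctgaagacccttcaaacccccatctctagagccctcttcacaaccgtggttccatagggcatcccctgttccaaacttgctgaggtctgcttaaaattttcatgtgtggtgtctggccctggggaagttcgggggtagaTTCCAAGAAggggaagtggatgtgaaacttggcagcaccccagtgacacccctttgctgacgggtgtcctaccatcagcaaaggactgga
C1qb, chr5:154407828-154408077 (minus strand): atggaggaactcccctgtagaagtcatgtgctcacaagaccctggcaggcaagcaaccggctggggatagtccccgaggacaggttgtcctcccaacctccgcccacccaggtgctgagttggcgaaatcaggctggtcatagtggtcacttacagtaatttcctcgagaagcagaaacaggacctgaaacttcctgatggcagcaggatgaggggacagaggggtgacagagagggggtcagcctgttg

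TTGCNNAA occurred in the C6 stretch 176 to 169 bases before the start, in C8a 136 to 129 bases before it and in C8b 128 to 121 bases before it. C8a also held GTTAAT at 110 to 105 and TTCNNNGAA at 230 to 222 bases before the start. TTCNNNGAA was found 90 to 82 bases before the start of C1qa, and none of the 5 motifs was found in the C1qb stretch. Of the 14 hepatocyte-made genes with a promoter in the table, 6 (C1r, C3, C4bpa, C6, C8a and C8b) held TTGCNNAA, which occurred in 9.22% of all 33469 promoters. GTTAAT was in 3 of these 14 (C4bpa, C4bpb and C8a; 6.45% of all promoters), TTCNNNGAA in 3 (C4bpb, C8a and Vtn; 7.67%), GAGGAAG in 2 (C4bpb and Mbl1; 10.2%) and TATAAA in 0 (12.9%). Among the 4 macrophage-made genes with a promoter, TTCNNNGAA was in C1qa and the other 4 motifs in none. C/EBP and STAT factors are known to drive acute-phase genes in hepatocytes, but a match of letters is only a description of the sequence. C8a lies next to C8b, C1r next to C1s, and C1qa next to C1qc and then C1qb, in the annotation of that assembly.

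Among the classical pathway genes made by hepatocytes, C4a fell most. C4a and C4b encode near-identical C4 proteins, and because pairs that matched several places had been dropped by the authors, the counts of both genes are uncertain and their reads could be split between them. C4a was 1876, 1452, 1249 and 1279 CPM without DEN at 14 weeks, 1565, 926, 674 and 775 CPM in NT liver and 371, 659.6, 479.9 and 555 CPM in nodules. The nodules lay below all other rats, whereas NT liver overlapped the no DEN rats through rat F06. Its log2 fold change in nodules was -1.52 ± 0.20 at 14 weeks (edgeR adjusted p = 2.72e-04) and -1.21 ± 0.17 at 20 weeks (edgeR adjusted p = 4.68e-04). In NT liver C4a was called at 8 weeks (-0.57 ± 0.15, edgeR adjusted p = 0.0126) and had values of -0.53 ± 0.26 at 14 weeks and -0.32 ± 0.13 at 20 weeks that did not pass. C4b was 32.4, 37.6, 34.7 and 38.5 CPM without DEN at 20 weeks and 24.3, 24.7, 22.1 and 25.3 CPM in nodules, with no overlap and a log2 fold change of -0.60 ± 0.09 (edgeR adjusted p = 4.33e-04). The value of 24.3 CPM joined nodules of rat F03 at 7.86 and 37.4 CPM, and with nodule 2 alone the C4b call was lost (-0.38, edgeR adjusted p = 0.0736). At 14 weeks the C4b value in nodules was -1.01 ± 0.22 (edgeR adjusted p = 0.00421). In NT liver C4b ranged from -0.19 to 0.11 on the log2 scale without a call. The count ratio of C4a to C4b was 34.9 ± 2.64 (SD, n = 4) without DEN at 14 weeks, 27.1 ± 2.20 in NT liver and 24.7 ± 1.76 in nodules.

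C1s, the protease of the C1 complex that cuts C4 and C2, was 779, 589, 601 and 527 CPM without DEN at 14 weeks and 428, 394, 359.8 and 369 CPM in nodules. All 4 nodule values were below the lowest no DEN value, and the log2 fold change was -0.70 ± 0.13 (edgeR adjusted p = 0.00213) at 14 weeks and -0.54 ± 0.14 (edgeR adjusted p = 0.00798) at 20 weeks. In NT liver the C1s values of -0.37, -0.26 and -0.08 were not called, and rat F06 had the highest NT value at 14 weeks, within the range without DEN. The call in 20-week nodules was lost without H13 or H26 (C1s log2 fold change of -0.50 to -0.44). C1r, which activates C1s, was called lower in nodules at 14 weeks only (-0.58 ± 0.10) and had -0.39 ± 0.13 at 20 weeks. C2, the serine protease that joins C4b in the C3 convertase, was not called in any comparison (log2 fold changes of -0.09 to 0.08). Its approximate 95% interval in 14-week nodules ran from -0.24 to 0.05.

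Of the 4 hepatocyte-made lectin pathway genes, Mbl2 was called lower in 4 of the 5 comparisons with no DEN, Masp1 in 3, Masp2 in 2 and Mbl1 in 1, while Fcnb was called higher in 3 and Colec10 in 1. Masp1, the protease that starts the lectin pathway, was 310.3, 233, 256 and 271 CPM without DEN at 14 weeks, 202, 147, 134 and 163 CPM in NT liver and 157, 111, 106 and 118 CPM in nodules. No treated rat reached the lowest no DEN value. Its log2 fold change was -0.69 ± 0.13 (edgeR adjusted p = 0.00109) in NT liver, -1.14 ± 0.15 (edgeR adjusted p = 2.98e-04) in nodules and -0.88 ± 0.20 (edgeR adjusted p = 0.00487) in nodules at 20 weeks. At 8 weeks the groups did not overlap either, at -0.47 ± 0.09 (edgeR adjusted p = 0.00236), which was below the fold threshold. Masp2, which cuts C4 and C2, was called lower at 14 weeks in NT liver (-0.51 ± 0.07) and nodules (-0.62 ± 0.09) and not at 8 or 20 weeks; the Masp2 call in NT liver was lost without H21 or H22 (-0.50 to -0.48).

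Mannose-binding lectin is encoded by Mbl1 and Mbl2 in the rat. Mbl2 was counted with only 25 to 32 read pairs a library without DEN at 20 weeks and was 1.45, 1.34, 1.52 and 1.26 CPM without DEN at 20 weeks, 0.893, 0.874, 0.653 and 0.445 CPM in NT liver and 0.666, 0.539, 0.352 and 0.217 CPM in nodules. Both tissues lay below the no DEN rats, with log2 fold changes of -0.97 ± 0.25 (edgeR adjusted p = 0.0167) and -1.67 ± 0.34 (edgeR adjusted p = 0.00241). Mbl2 was also called lower in 14-week nodules (-1.45 ± 0.24) and, with overlapping groups, in NT liver at 8 weeks (-0.99 ± 0.33, edgeR adjusted p = 0.0394), a call lost without any 1 rat but H17 (edgeR adjusted p = 0.0567 to 0.109). Mbl1 was called lower only in 14-week nodules, at 156 ± 24.3 CPM (SD, n = 4) against 241 ± 8.02 CPM without DEN (-0.64 ± 0.12, edgeR adjusted p = 0.00180).

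Fcnb, the ficolin of neutrophils and monocytes, was 0.450, 0.168, 0.310 and 0.747 CPM without DEN at 8 weeks, from 4 to 19 read pairs a library, and 1.87, 2.39, 1.08 and 1.85 CPM in NT liver, from 34 to 82 pairs. All 4 treated rats were above all untreated ones. Only 2 of the 4 no DEN rats and all 4 treated rats reached the count needed for testing, so the test at 8 weeks is not given as support, although the call stands in the counts above. Fcnb was also called higher in nodules at 14 weeks (1.31 ± 0.39) and 20 weeks (0.62 ± 0.22, edgeR adjusted p = 0.0334), and in NT liver it had 0.93 ± 0.38 and 0.72 ± 0.35 at 14 and 20 weeks without a call. The nodule calls of Fcnb were lost without H09, H10 or H12 at 14 weeks (edgeR adjusted p = 0.0537 to 0.0587) and without H14, H15, H16, H25 or H28 at 20 weeks (edgeR adjusted p = 0.0586 to 0.0851). Beside it, of the 5 neutrophil and monocyte markers tested at 8 weeks 4 rose (S100a8, S100a9, Csf3r and Fcgr3a) and Cd14 fell, and the summed level of the 7 such markers found was 33.0 to 54.2 CPM without DEN and 29.1 to 53.5 CPM in NT liver. Their part in the Fcnb result was not tested. Colec10, a collectin of liver, was 34.2 ± 1.39 CPM (SD, n = 4) without DEN and 57.6 ± 3.75 CPM in NT liver at 8 weeks, a log2 fold change of 0.75 ± 0.07 (edgeR adjusted p = 5.86e-05) with no overlap. At later times it was not called in either tissue (0.22, 0.11, -0.08 and -0.32). Fcna, the ficolin of Kupffer cells in rodents, was called in none of the comparisons (log2 fold changes of -0.11 to 0.26).

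C3, on which all 3 pathways meet, was 15486, 14646, 13848 and 14459 CPM without DEN at 14 weeks, 13434, 11929.6, 9718 and 10469 CPM in NT liver and 8965, 9576, 9306 and 9649 CPM in nodules. The nodules were the lowest of the 3 groups and overlapped neither of the others, and the C3 log2 fold change against no DEN was -0.66 ± 0.09 (edgeR adjusted p = 2.82e-04). In 20-week nodules it was -0.43 ± 0.16 (edgeR adjusted p = 0.0380), which passed the p threshold and not the fold threshold, and in NT liver it was -0.29 ± 0.08, -0.32 ± 0.12 and -0.09 ± 0.10 at 8, 14 and 20 weeks. Factor B (Cfb), the protease of the alternative C3 convertase, was 2338, 2397, 2414 and 2466 CPM without DEN at 14 weeks, 2041, 1467, 1277 and 1463 CPM in NT liver and 1636, 1190.1, 1162 and 1310.1 CPM in nodules. Every treated rat lay below the untreated ones, and in both tissues rat F06 was the highest. Its log2 fold change was -0.59 ± 0.14 (edgeR adjusted p = 0.00384) in NT liver, -0.88 ± 0.13 (edgeR adjusted p = 4.61e-04) in nodules and -0.66 ± 0.18 (edgeR adjusted p = 0.0114) in 20-week nodules.

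Factor D (Cfd), the protease that cuts factor B, moved the other way at 20 weeks: it was 18.8, 12.8, 15.5 and 10.4 CPM without DEN, 27.6, 20.5, 17.9 and 22.7 CPM in NT liver and 28.5, 18.8, 18.2 and 20.1 CPM in nodules. The groups overlapped in 1 no DEN rat, at 18.8 CPM, and the log2 fold changes were 0.63 ± 0.19 (edgeR adjusted p = 0.0311) and 0.55 ± 0.20 (edgeR adjusted p = 0.0386). The Cfd calls were lost without F03, H14, H15, H16 or, for NT liver, H28 (edgeR adjusted p = 0.0614 to 0.0837 for NT liver and 0.0625 to 0.109 for nodules). At 8 and 14 weeks Cfd was not called.

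The regulators were a mixed group, since the secreted ones other than Clu were sorted as hepatocyte-made and the membrane-bound ones come from many cells. Vitronectin (Vtn), a plasma and matrix protein that keeps the membrane attack complex from inserting, was 4928, 5349, 5236 and 5298 CPM without DEN at 14 weeks, 3527, 2289.7, 2404 and 2743 CPM in NT liver and 2789, 1959, 2041 and 2238 CPM in nodules. Both tissues were wholly below the no DEN rats. The Vtn log2 fold change was -0.89 ± 0.14 (edgeR adjusted p = 3.32e-04) in NT liver, -1.22 ± 0.13 (edgeR adjusted p = 8.99e-05) in nodules and -1.02 ± 0.25 (edgeR adjusted p = 0.00728) in 20-week nodules, where the rats ranged from 1371 to 3109.7 CPM. Serping1, the inhibitor of C1r, C1s and the MASPs, was 1284, 1244, 1117 and 1219 CPM without DEN, 932, 696, 661 and 701 CPM in NT liver and 757, 632, 689 and 645 CPM in nodules at 14 weeks. There was no overlap with the untreated rats, at -0.67 ± 0.12 (edgeR adjusted p = 7.12e-04) and -0.86 ± 0.10 (edgeR adjusted p = 1.30e-04), and 20-week nodules were also lower (-0.67 ± 0.13, edgeR adjusted p = 0.00196).

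C4bpa and C4bpb encode the chains of C4b-binding protein, which speeds the decay of the classical C3 convertase. C4bpb was 509.6, 493, 444 and 455 CPM without DEN at 14 weeks, 483, 282, 246 and 269.7 CPM in NT liver and 556, 259, 238 and 240.4 CPM in nodules. Rat F06 lay inside or above the no DEN range in both tissues, and the other 3 rats were below it. C4bpb was called lower in NT liver at 14 weeks (-0.53 ± 0.20, edgeR adjusted p = 0.0423), a call lost without any 1 rat but F06 (edgeR adjusted p = 0.0617 to 0.105), and in nodules at 20 weeks (-0.73 ± 0.18, edgeR adjusted p = 0.00677), but not in nodules at 14 weeks (-0.57 ± 0.27, edgeR adjusted p = 0.112). C4bpa was called lower in nodules at both times (-0.71 ± 0.12 and -0.53 ± 0.13, the latter lost without H15 or H28 at -0.48 to -0.45). Factor I (Cfi), the protease that inactivates C3b and C4b, was not called, with log2 fold changes of -0.36 to 0.05.

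Cd55, the decay-accelerating factor of cell membranes, was close to absent without DEN: the 4 rats had 0 to 3 read pairs each at 14 weeks and 0 to 2 at 20 weeks. In NT liver at 14 weeks the libraries had 12 to 27 pairs (0.520 ± 0.246 CPM, SD, n = 4), and the summed nodules had 12 to 74 pairs at 14 weeks and 32 to 83 at 20 weeks (0.782 ± 0.297 CPM). Set against a floor of 3 pairs per no DEN library, Cd55 was at least 4.81-fold higher in NT liver at 14 weeks, at least 6.08-fold higher in nodules at 14 weeks and at least 5.49-fold higher in nodules at 20 weeks. The groups did not overlap. Because Cd55 reached the count needed for testing in 4 of 4 treated rats and in 0 of 4 no DEN rats in each of these comparisons, it had to differ there and its test is not given as support. No rat had more than 1.06 CPM of Cd55, and the gene was too low to be tested in NT liver at 8 and 20 weeks. Cd59, which stops C9 from joining the pore, was not called in any comparison (-0.32 to -0.14), nor was Clu, a chaperone that also binds the terminal complex (0.01 to 0.40). Clu was nevertheless above all no DEN rats in 20-week nodules, at 1829 ± 124 CPM (SD, n = 4) against 1405 ± 137 CPM (0.35 ± 0.13, edgeR adjusted p = 0.0389).

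Of the 6 macrophage-made genes, 2 were called higher in NT liver at 8 weeks, 3 at 14 weeks and 3 at 20 weeks (16.5%, 22.8% and 14.3% of all genes), and 5 and 4 in nodules at 14 and 20 weeks (23.9% and 23.6% of all genes). C1qa, C1qb and C1qc encode the chains of C1q, and C1qc was called higher in all 5 comparisons with no DEN liver. The 4 rats had C1qc at 56.3, 61.3, 72.3 and 69.2 CPM without DEN at 14 weeks, 117, 83.3, 80.7 and 85.2 CPM in NT liver and 147, 93.3, 90.1 and 91.4 CPM in nodules. All treated rats were above all untreated ones, and rat F06 was the highest of both tissues. The C1qc log2 fold change was 0.54 ± 0.13 (edgeR adjusted p = 0.00545) in NT liver and 0.69 ± 0.18 (edgeR adjusted p = 0.0107) in nodules, or 1.45-fold and 1.61-fold. At 8 weeks it was 0.60 ± 0.16 (edgeR adjusted p = 0.0166), with 1 no DEN rat among the treated ones, and at 20 weeks it was 0.61 ± 0.20 in NT liver and 0.53 ± 0.16 in nodules (edgeR adjusted p = 0.0462 and 0.0188), again with overlap. The call rested on single rats in NT liver at 14 weeks (lost without F06 or H09, at 0.38 to 0.46), in NT liver at 20 weeks (lost without F03, H14, H15, H16 or H28, edgeR adjusted p = 0.0996 to 0.122) and in 20-week nodules (lost without F03, H14, H15 or H16, with C1qc log2 fold changes of 0.43 to 0.49).

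C1qa was 101, 80.6, 80.7 and 71.9 CPM without DEN at 20 weeks, 159, 108, 107 and 131 CPM in NT liver and 143, 116, 112 and 130.2 CPM in nodules, so that all 8 treated values lay above the untreated rats. It was called higher there (0.61 ± 0.15, edgeR adjusted p = 0.0127, and 0.55 ± 0.12, edgeR adjusted p = 0.00423) and in 14-week nodules (0.54 ± 0.16, edgeR adjusted p = 0.0219). C1qb was 53.8, 59.2, 67.0 and 63.6 CPM without DEN at 14 weeks, 110.2, 71.3, 66.4 and 78.2 CPM in NT liver and 127, 83.1, 79.3 and 78.4 CPM in nodules, and was called only in those nodules (0.58 ± 0.17, edgeR adjusted p = 0.0195). Without F06 the 14-week nodule values were 0.38 for C1qa and 0.40 for C1qb, under the fold threshold, and without H09 or H10 both missed the p threshold (edgeR adjusted p = 0.0548 to 0.0681 and 0.0548 to 0.0609). C1qa at 20 weeks fell short without F03 in NT liver and without H16 in nodules (both 0.48). In the other comparisons the C1qb log2 fold change was 0.45 to 0.50, below the fold threshold, with edgeR adjusted p of at most 0.0485. The count ratio of C1qa to C1qb was 1.41 ± 0.0648 (SD, n = 4) at its lowest group mean and 1.56 ± 0.0210 at its highest, and that of C1qc to C1qb went from 1.03 ± 0.0341 in no DEN liver at 8 weeks to 1.16 ± 0.0543 in NT liver at 20 weeks. C1qb to C1s, the ratio of a macrophage-made to a hepatocyte-made part of the C1 complex, was 0.100 ± 0.0224 without DEN at 14 weeks, 0.162 ± 0.0176 in NT liver and 0.235 ± 0.0419 in nodules, without overlap between no DEN liver and either tissue.

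Properdin (Cfp), which steadies the alternative convertase, was 41.0, 33.7, 35.8 and 31.4 CPM without DEN at 20 weeks, 64.5, 45.7, 46.5 and 59.2 CPM in NT liver and 58.8, 47.8, 48.3 and 49.2 CPM in nodules. All treated rats were above the untreated ones. Only NT liver at 20 weeks was called (0.62 ± 0.13, edgeR adjusted p = 0.00731), while nodules reached 0.50 ± 0.11 (edgeR adjusted p = 0.00356) at 20 weeks and 0.56 ± 0.21 (edgeR adjusted p = 0.0524) at 14 weeks, and NT liver had 0.47 ± 0.17 and 0.40 ± 0.16 at 8 and 14 weeks.

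The receptors of C3a and C5a were counted at a low level and rose in most comparisons. C5ar1 was 5.07, 3.57, 2.91 and 3.30 CPM without DEN and 8.08, 7.15, 5.81 and 5.34 CPM in NT liver at 8 weeks, and 2.06, 2.52, 3.13 and 2.55 CPM without DEN, 6.63, 3.78, 4.71 and 4.26 CPM in NT liver and 9.14, 5.91, 5.15 and 4.24 CPM in nodules at 14 weeks. The treated rats lay above the untreated ones at both times. Its log2 fold change was 0.83 ± 0.19 (edgeR adjusted p = 0.00791), 0.95 ± 0.20 (edgeR adjusted p = 0.00212) and 1.23 ± 0.26 (edgeR adjusted p = 0.00375) in these 3 comparisons, and 0.59 ± 0.20 (edgeR adjusted p = 0.0285) in 20-week nodules. C3ar1 was 0.923, 0.921, 1.07 and 1.82 CPM without DEN at 14 weeks, 3.75, 2.22, 1.58 and 1.82 CPM in NT liver and 1.89, 2.55, 1.92 and 2.13 CPM in nodules. NT liver overlapped the untreated rats and the nodules did not, with log2 fold changes of 1.01 ± 0.32 (edgeR adjusted p = 0.0208) and 0.82 ± 0.25 (edgeR adjusted p = 0.0246). In 20-week nodules C3ar1 was at 0.66 ± 0.24 (edgeR adjusted p = 0.0387), a call lost without any 1 of F03, H13, H14, H16, H25 and H26 (edgeR adjusted p = 0.0568 to 0.113). The 14-week C3ar1 calls were lost without H09, H10 or H11 in NT liver (edgeR adjusted p = 0.0570 to 0.0629) and without these or H21 in nodules (edgeR adjusted p = 0.0624 to 0.0736), and that of C5ar1 in 20-week nodules without F03, H14, H15 or H16 (edgeR adjusted p = 0.0625 to 0.0876).

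**Figure D3:**
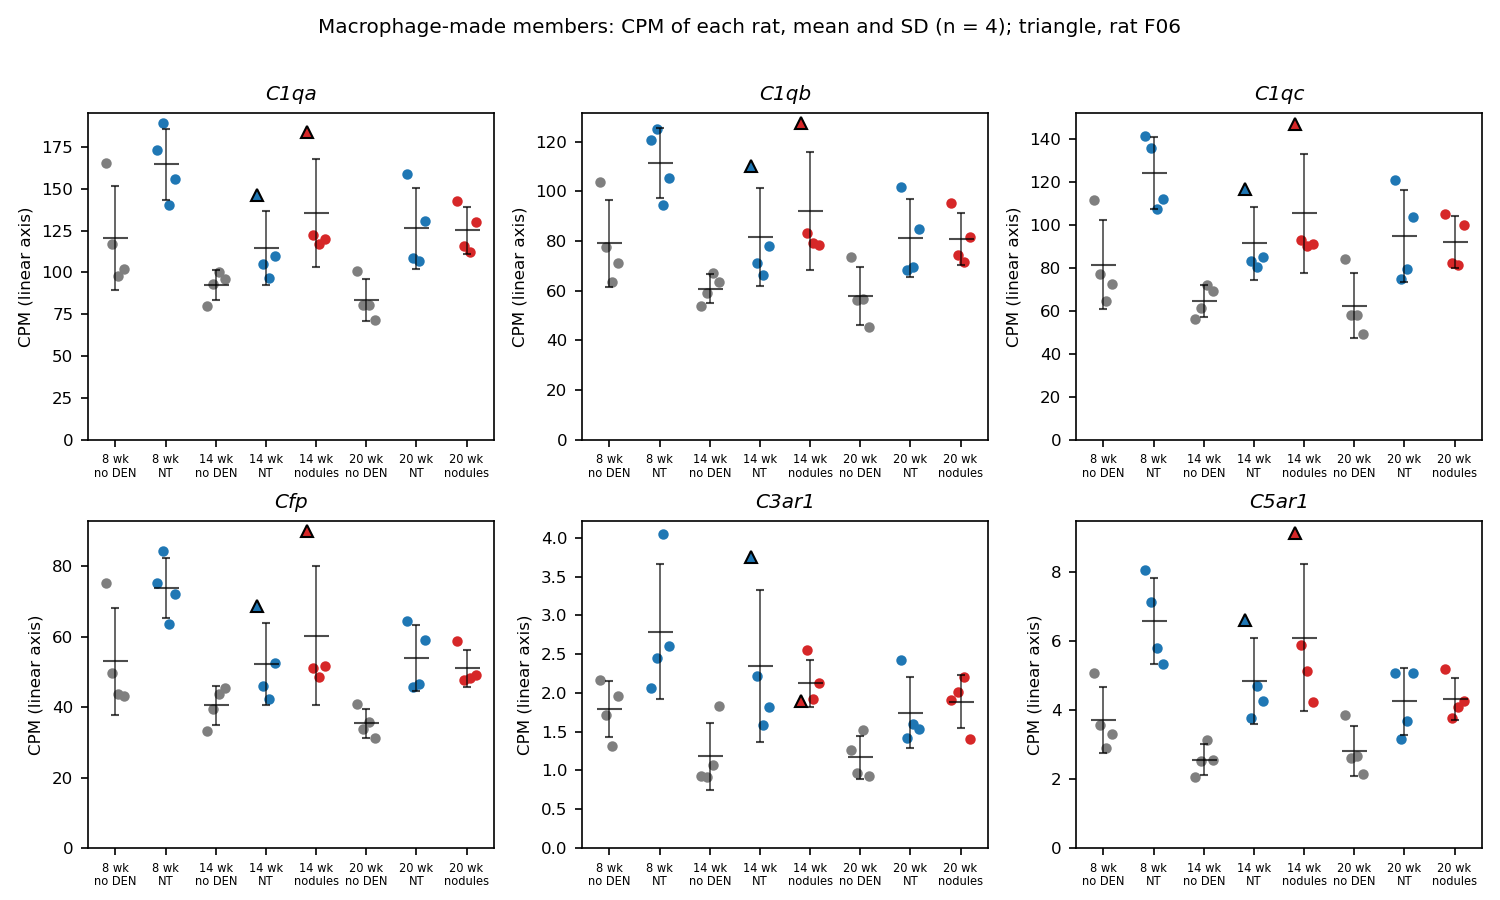
CPM of C1qa, C1qb, C1qc, Cfp, C3ar1 and C5ar1 in each of the 4 rats of the 8 groups (points, grey for no DEN, blue for NT liver, red for nodules), with the mean and SD as a bar and rat F06 as a triangle; every axis starts at 0. At each time the treated means lie above the no DEN mean, and in 14-week nodules rat F06 has 184 CPM of C1qa while the other 3 rats have 117 to 122 CPM.

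These differences stood beside changes in markers of the cells that make the proteins. Of the 11 macrophage and Kupffer cell markers tested, 3 were called higher in NT liver at 8 weeks, 4 at 14 weeks and 4 at 20 weeks, and 4 in nodules at both times, with no call lower (14.3% to 23.9% of all genes were called higher). The log2 fold change was above 0 for 8, 9, 11, 7 and 8 of the 11 in that order. Cd68 and Lyz2, which mark macrophages in general, were higher in all 5 comparisons (0.60 to 0.83 and 0.82 to 1.61 on the log2 scale), and Clec4f and Cd163, markers of resident Kupffer cells, were called in none. The summed level of the list was 432 to 630.2 CPM without DEN, 440.2 to 1057 CPM in NT liver and 454 to 927 CPM in nodules at 14 weeks, where rat F06 had the highest sum in both tissues, 1057 CPM and 927 CPM, and the medians were 511 CPM without DEN, 511 CPM in NT liver and 538 CPM in nodules. Per unit of Cd68, C1qb was 2.30 ± 0.187 without DEN at 14 weeks, 2.05 ± 0.185 in NT liver and 1.94 ± 0.119 in nodules. Per unit of Csf1r, another marker of the list, it did not fall, at 1.51 ± 0.113, 1.53 ± 0.0951 and 1.69 ± 0.359. At 8 weeks the ratio to Cd68 was 2.46 ± 0.201 without DEN and 2.17 ± 0.173 in NT liver. The ratio to Csf1r was 1.38 ± 0.0739 and 1.73 ± 0.172 there, so the direction depended on the marker chosen. Of the 10 hepatocyte markers, 3, 5 and 1 were called lower in NT liver at 8, 14 and 20 weeks (5.21%, 9.85% and 3.82% of all genes). In nodules 6 and 7 were called lower at 14 and 20 weeks (15.2% of all genes at both times). Apoa1 was the single one called higher at 14 and 20 weeks. In 14-week nodules the median log2 fold change was -0.83 for the 10 hepatocyte markers, -0.73 for the 15 acute-phase and secreted hepatocyte proteins tested and -0.86 for the 21 hepatocyte-made complement genes. Markers of other cells moved too. All 5 cholangiocyte markers were called higher in NT liver at 14 and 20 weeks and in nodules at both times (3 at 8 weeks), and their summed level at 14 weeks was 17.6 to 25.5 CPM without DEN, 40.6 to 92.2 CPM in NT liver and 68.7 to 124 CPM in nodules. Of the 9 stellate cell and fibroblast markers tested, 7, 6 and 5 were higher in NT liver at 8, 14 and 20 weeks and 6 in nodules at both times, with 1 lower in NT liver at 14 weeks. Sinusoidal endothelium had 5 of 6 markers higher in each of the 5 comparisons with no DEN, and of the lymphocyte markers 6 of 7 were higher at 8 weeks, 3 of 6 in NT liver at 14 and at 20 weeks, and 3 and 4 of 7 in nodules. The part of the cell markers in the complement results was not tested.

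Within the same rats, nodules were compared with NT liver. Without regard to which tissues came from the same rat, none of the 34 genes was called at 14 or 20 weeks, and neither was any of all genes tested (0% higher and 0% lower). At an unadjusted p under 0.05 there were 7 of the 34 at 14 weeks and 16 at 20 weeks, against 11.8% and 24.0% of all genes, and DESeq2 called 0 and 5. With the rat as a block in the edgeR fit there was again no call at 14 weeks (0% of all genes in either direction; at an unadjusted p under 0.05, 16 of the 34 and 2518 of all 11466 genes), whereas at 20 weeks 1 of the 34 genes was higher and 8 lower in nodules, with 9.21% of all genes called higher and 5.46% lower. The 8 were C4a, C4b, Mbl2, Masp1, Cfb, C6, C9 and Vtn, all hepatocyte-made, and the one called higher was Cd55.

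In NT liver at 20 weeks rats F03, H25, H26 and H28 had C4a at 1089, 885, 966 and 1219 CPM, and their nodules had 485, 761, 544 and 525 CPM. C4a was lower in the summed nodules of each rat, least in H25, with a log2 fold change of -0.89 ± 0.16 (edgeR adjusted p = 0.00279 with the block and 0.0949 without). Vtn fell from 4419.5, 3823, 3222 and 3426 CPM to 2947, 3109.7, 1874 and 1371 CPM in the same order of rats, with -0.78 ± 0.16 (edgeR adjusted p = 0.00419 with the block and 0.152 without). Masp1 fell from 225, 285, 255 and 199.6 CPM to 158, 226, 125 and 113 CPM, the smallest adjusted p of the 34 (-0.70 ± 0.11, edgeR adjusted p = 7.50e-04 with the block and 0.133 without). The other 5 had blocked log2 fold changes of -0.79 ± 0.20 (C6), -0.76 ± 0.24 (Mbl2), -0.65 ± 0.14 (C4b), -0.53 ± 0.12 (C9) and -0.52 ± 0.13 (Cfb), and each was lower in the summed nodules of 4 of 4 rats. Scaled over single libraries, 7 of the 8 nodules were below the NT liver of their rat for C4a and C6 and all 8 for the other 6 genes. The exceptions were nodule 2 of rat H25 for C4a (979.7 CPM, NT liver 921 CPM) and nodule 2 of rat H25 for C6 (212 CPM, NT liver 204 CPM), and C4b in nodule 2 of rats F03 and H25 (37.4 and 29.9 CPM) was close to its NT liver (38.2 and 30.1 CPM). Cd55 was higher in the summed nodules of each rat, at a mean of 0.300 ± 0.256 CPM (SD, n = 4) in NT liver and 0.782 ± 0.297 CPM in nodules; it reached the count needed for testing in 4 of 4 nodule values and in 2 of 4 NT livers, so no test of it is given. The blocked median was -0.47 for the hepatocyte-made genes and -0.03 for the macrophage-made ones, none of which was called between nodules and NT liver. Beside them in the same fit, 4 of 5 cholangiocyte markers were called higher (median 1.06), 3 of 10 hepatocyte markers (median -0.35), 2 of 11 macrophage and Kupffer cell markers and 1 of 6 neutrophil and monocyte markers lower, and 1 of 9 stellate cell and fibroblast markers higher, and their part in the result was not tested. C1qa, for one, had -0.03 ± 0.08 there, with an approximate 95% interval of -0.19 to 0.13. The number of lower genes depended on single rats: it was 13 without H25, 3 without H26 and 4 without H28, where 7.93%, 2.80% and 3.48% of all genes were lower. C6 was lost without F03 or H26 (edgeR adjusted p = 0.109 to 0.147), C4b without F03, H26 or H28 (log2 fold changes of -0.68 to -0.45), Mbl2 without H25, H26 or H28 (edgeR adjusted p = 0.0580 to 0.166), and Cfb and C9 without H26 or H28 (edgeR adjusted p = 0.0594 to 0.103 and 0.0506 to 0.0972). With nodule 2 alone in the blocked fit 2 genes were lower (3.41% of all genes), and of the 8 genes Masp1 was called while C4a (edgeR adjusted p = 0.0846), Vtn (0.0596), C6 (0.0647), C4b (0.201), Mbl2 (0.0936), Cfb (0.0710) and C9 (0.0867) were not. With nodule 1 alone 7 genes were lower (4.47% of all genes), with Masp1 (-0.497) and Cfb (-0.40) short of the fold threshold and Mbl2 at an edgeR adjusted p of 0.159. Without the block 4 genes were called lower when H25 was left out.

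**Figure D4:**
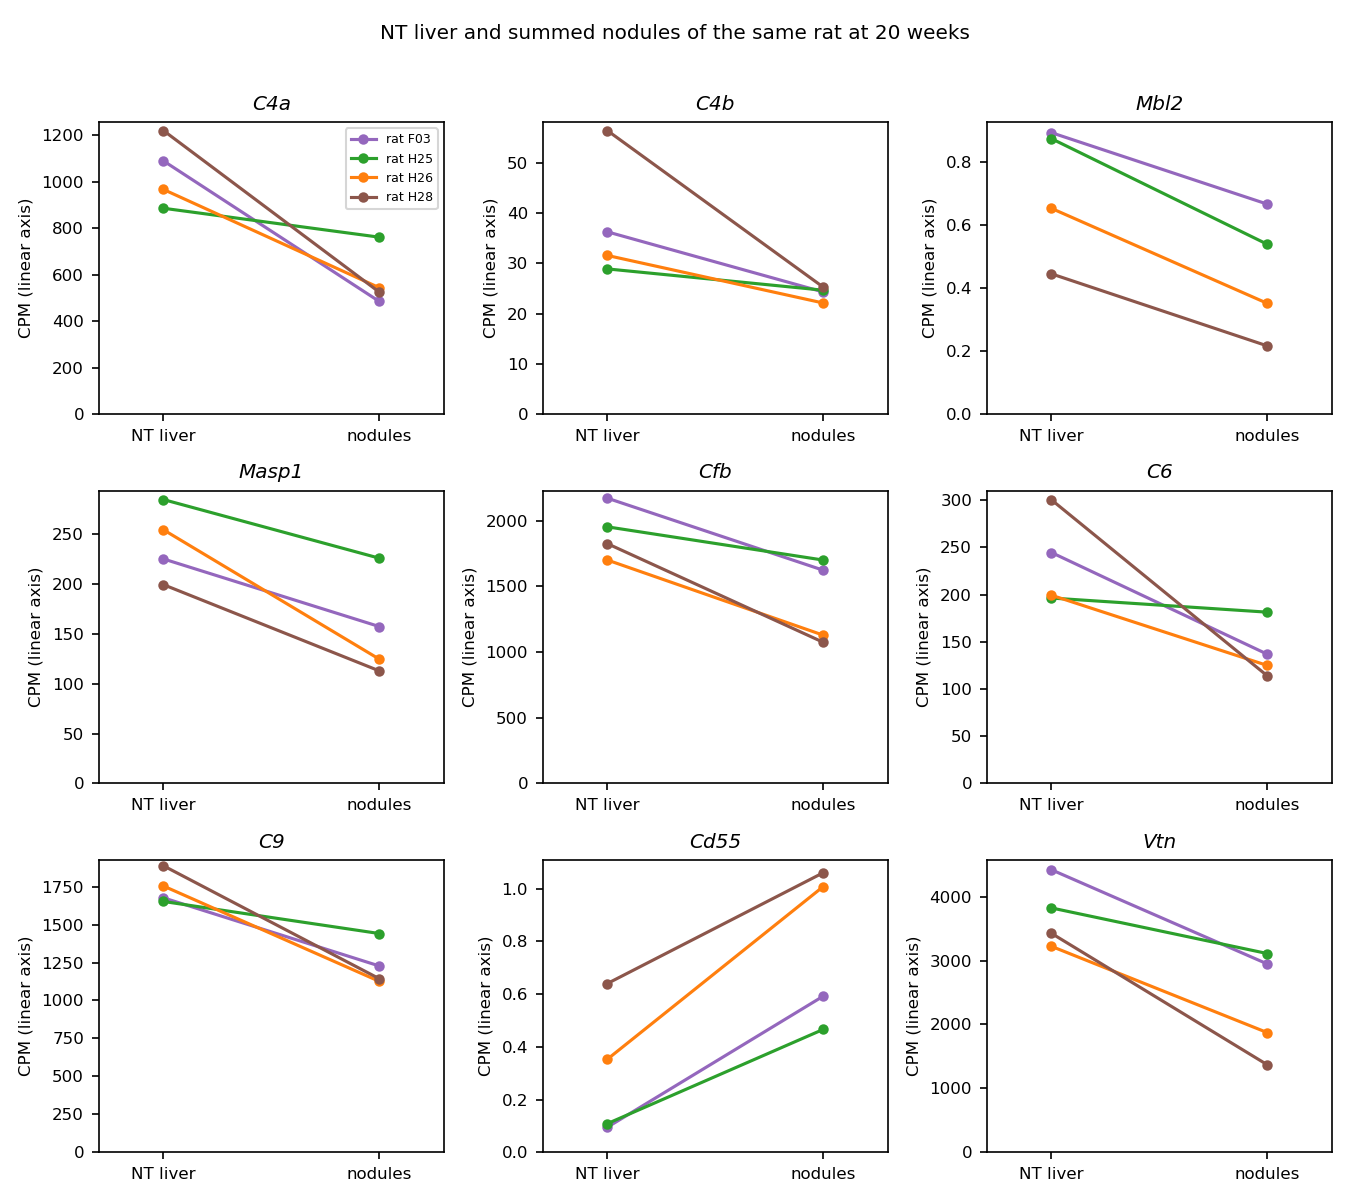
CPM of the 9 genes called between nodules and NT liver at 20 weeks with the rat as block; each line joins the NT liver and the summed nodules of 1 rat, and every axis starts at 0. All 4 lines fall for C4a, C4b, Mbl2, Masp1, Cfb, C6, C9 and Vtn and rise for Cd55, and rat H25 has the flattest line for C6.

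Whether the DEN effect differed between times was tested as an interaction. In NT liver 4 genes had a lower effect at 14 than at 8 weeks and none a higher one (4.80% and 4.16% of all genes were called lower and higher). These were C8g (-0.78 ± 0.20, edgeR adjusted p = 0.0242), Vtn (-0.60 ± 0.17, edgeR adjusted p = 0.0350), Colec10 (-0.53 ± 0.13, edgeR adjusted p = 0.0237) and Masp2 (-0.36 ± 0.10, edgeR adjusted p = 0.0276). For C8g, Vtn and Masp2 the fall against no DEN was deeper at 14 weeks, and for Colec10 a rise at 8 weeks was smaller at 14 weeks. The count was 11 lower and 1 higher without rat F06 (7.58% and 7.99% of all genes), and from 1 to 5 lower without any other single rat (2.87% to 9.20% of all genes). Vtn was lost without F09, F10, H06, H07, H08, H10, H11, H12, H21 or H22 (edgeR adjusted p = 0.0527 to 0.0723), Masp2 without F09, F10, H08, H10 or H11 (edgeR adjusted p = 0.0515 to 0.0599), C8g without F09 or H10 (edgeR adjusted p = 0.0522 to 0.0530) and Colec10 without H07 (edgeR adjusted p = 0.0508).

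Between 20 and 14 weeks no gene of the 34 was called for NT liver (0.365% of all genes higher, 0.373% lower), although 11 had an unadjusted p under 0.05, as did 1912 of all 11245 genes, and DESeq2 called 2. The hepatocyte-made genes had a higher effect at 20 weeks in 20 of 21 cases, with a median of 0.30, and C8g came closest (0.80 ± 0.18, edgeR adjusted p = 0.0526). These genes were measured in the same rats and are not separate cases, and whether other genes did the same was not tested. Without rat F06 9 genes were called higher, without H26 2, and without H09 or H28 1, where 1.75%, 2.42%, 0.370% and 1.07% of all genes were higher. For nodules the same test called none of the 34 (0.00862% of all genes higher, 0.0775% lower; 0 of the 34 and 3.26% of all genes had an unadjusted p under 0.05, and DESeq2 called 0).

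The 2 nodules of a rat differed in their complement genes by a median of 0.169 to 0.368 on the log2 scale over the 8 rats, where all genes at 1 CPM or more differed by 0.118 to 0.329. In rat H28 the median over the complement genes was 0.368 and over all genes 0.222, and the largest gaps of C6, C8a, C8b, Masp1 and Vtn were all found in that rat (0.716, 0.935, 0.922, 1.05 and 0.847). C4b differed by 2.18 and C4a by 1.37 between the nodules of rat F03. Cfi had the smallest median gap over the 8 rats, 0.0180.

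Taking 1 nodule of each rat ended further calls against no DEN. At 14 weeks nodule 1 alone ended those of C1qa, C1qb and Fcnb (edgeR adjusted p = 0.0620 to 0.0810), and nodule 2 alone that of C1r (-0.46). At 20 weeks nodule 1 alone ended those of Fcnb, Cfd and C3ar1 (edgeR adjusted p = 0.0628 to 0.0683), and nodule 2 alone those of C1qc, C1s, C4bpa, C3ar1 and Cfd (edgeR adjusted p = 0.0517 to 0.0832). In NT liver at 8 weeks C1qc, C4a, Mbl2, C8a and C5ar1 were no longer called without both rats F09 and F10 (0.44, -0.44, -0.55, -0.46 and 0.60 on the log2 scale). In the fit of all 8 groups the 20-week calls of Cfd in both tissues (edgeR adjusted p = 0.0727 in NT liver and 0.0616 in nodules) and of Fcnb in nodules (0.180) were lost, as was C1qc in NT liver at 20 weeks with RLE scaling (0.0512) or no filter (0.0617) and C4bpb in NT liver at 14 weeks with no filter (0.0507).

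Of 20 further complement genes found, 17 were tested in each comparison with no DEN, and 5 were higher and 1 lower in NT liver at 8 weeks, 5 and 2 at 14 weeks, 3 and 1 at 20 weeks, 5 and 7 in nodules at 14 weeks, and 3 and 7 at 20 weeks. Among all genes 16.5% were higher and 5.21% lower, 22.8% and 9.85%, 14.3% and 3.82%, 23.9% and 15.2%, and 23.6% and 15.2% in the same order. Crp, a pentraxin made by hepatocytes, was lower in all 5 comparisons (-0.65 to -1.75 on the log2 scale). Also lower in nodules at both times were C1rl, Cpn1, Cpn2 and Cpb2 (-0.97 ± 0.15, -0.54 ± 0.11, -0.95 ± 0.19 and -0.51 ± 0.12 at 20 weeks), the last 3 of which encode the subunits of carboxypeptidase N and carboxypeptidase B2, enzymes that inactivate C3a and C5a. Higher in all 5 comparisons were Colec12 (1.29 to 2.18), a scavenger collectin, and the endothelial genes Cd93 and Thbd. Itgam and Itgb2, the chains of complement receptor 3 on myeloid cells, were higher in NT liver at 8 and 14 weeks and in nodules at 14 weeks. Vsig4, the complement receptor of Kupffer cells, was not called against no DEN (-0.46 to 0.07) and was lower in nodules than in NT liver at 20 weeks with the rat as block (-0.50 ± 0.11, edgeR adjusted p = 0.00560).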

How the data were processed

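Whole-tissue RNA of male Fischer 344 rat liver was sequenced in 40 libraries of 24 rats. The authors aligned 75 bp read pairs from a stranded poly(A) protocol with STAR 2.7.1a to rn6 and counted them with HTSeq, keeping pairs that lay inside the exons of 1 gene and dropping pairs that matched several places. The deposited values are raw counts per gene, and 32.8% to 45.4% of pairs fell in lines that name no gene, which were left out of library sizes and tests. The 2 nodules of each rat were added up. The members and lists were chosen with earlier results of these data known.

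Genes were filtered (filterByExpr), scaled by TMM and tested with the edgeR (4.0.16, R 4.3.3) quasi-likelihood F test for the groups compared only, with Benjamini-Hochberg adjustment over all genes tested. A gene was called at an adjusted p of at most 0.05 and a log2 fold change of 0.5 or more in either direction. Interactions were called at an adjusted p of at most 0.05. CPM are TMM-scaled. The SE of a log2 fold change was taken from the F statistic. The 95% intervals are approximate: they use a normal distribution and are too narrow for 4 rats per group. The code was tested on simulated counts. NT liver and nodules came from the same rats, and the deviations of a rat's pair from the group means correlated at 0.385 to 0.620 over genes in all 8 rats, so the rat was also used as a block. Alternatives were DESeq2 (1.42.0), RLE scaling, no filter, 1 fit of all 8 groups, each rat left out, the DEN rats numbered F left out, 1 nodule alone and other thresholds. For the fit with the rat as block they were chosen after seeing the data.

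Values of every rat were given for the macrophage-made genes, C3 and, in each role, up to 3 genes with the largest log2 fold change among those called against no DEN with a mean of at least 1 CPM. Promoters came from RefSeq (GRCr8), whose coordinates were not mixed with rn6. The cell markers and further complement genes were described by counts and ranges only, and some genes within those counts are not reported by name here. Rats of a group are separate animals.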

Additional observations from a re-analysis of the deposited data

Results flagged for a closer look

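In 272 sets of 4 rats (34 genes in 8 groups), 21 (7.72%) had a highest or lowest rat whose gap to the nearest other, as a share of the whole range of the set, was above Dixon's 95% critical value. Chance flags about 1 in 20 such sets. Rat F06 held 12 of the 21, always as the highest rat. In its nodules the share was 0.916 for C1qa (184 CPM, others 117 to 122), 0.904 for C1qb, 0.944 for C1qc, 0.886 for Cfd (33.5 CPM, others 14.7 to 16.8), 0.928 for Cfp (90.0 CPM, others 48.6 to 51.6), 0.955 for C8b, 0.831 for C8g (223 CPM, others 106 to 126) and 0.935 for C4bpb (556 CPM, others 238 to 259). In its NT liver it was 0.874 for C1qc, 0.867 for Fcnb (2.20 CPM, others 0.741 to 0.935), 0.847 for C4bpb and 0.850 for Serping1 (932 CPM, others 661 to 701). The macrophage marker sum of rat F06 was the highest of its group in both tissues, with 11 of 11 genes highest in NT liver and 7 of 11 in nodules, and the 7 neutrophil and monocyte markers were all highest in it in both. In its NT liver 20 of the 21 hepatocyte-made members (summed 30542 CPM, others 21119.9 to 24238 CPM) and 14 of 16 acute-phase and secreted hepatocyte proteins were also highest, and in its nodules 14 of 21 and 11 of 16. It had the lowest sum of the cholangiocyte markers (40.6 CPM, others 58.1 to 92.2, in NT liver, and 68.7 CPM, others 89.2 to 124, in nodules), of the 7 members of several or other cell types (1431 CPM, others 1661 to 2012, and 1493 CPM, others 1918 to 2215) and, in nodules, of the hepatocyte markers (153993 CPM, others 157283 to 187502). The part of these lists in the values of rat F06 was not tested.

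The other 9 were spread over 7 rats. Rat F03 was highest for Fcna in NT liver (0.867) and for Cfp in nodules (0.875) at 20 weeks. Among no DEN rats, H13 was lowest for C4a (0.960; 1066 CPM, others 1389 to 1403) and highest for Fcnb (0.934), H16 was highest for Vtn (0.969; 5158 CPM, others 4431 to 4454), H09 was lowest for C2 (0.836) and H12 highest for C3ar1 (0.837; 1.82 CPM, others 0.921 to 1.07). In NT liver at 8 weeks H17 was highest for C8a (0.972; 936 CPM, others 825 to 828) and F10 for Cfi (0.867).

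The effect of DEN in NT liver differed between 14 and 8 weeks by the interaction test for 4 genes, with differences in log2 fold change of -0.36 for Masp2, -0.53 for Colec10, -0.78 for C8g and -0.60 for Vtn.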

How the results depend on the processing

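No called log2 fold change of a member reversed under the alternatives tried for it: 1046 values stayed past the threshold and 156 fell short of it. Values that were not called in the main fit were not followed gene by gene, so these numbers leave out calls gained. Without rat F06, for example, 13 members were lower in NT liver at 14 weeks (11.6% of all genes), and 10 of them were called with all rats. Scaling by RLE moved the median of all genes by -0.02 to 0.01 on the log2 scale. For the stricter threshold (a log2 fold change of at least 1 and an adjusted p of at most 0.01), the members called higher and lower were 1 and 0 in NT liver at 8 weeks, 1 and 2 at 14 weeks, 0 and 0 at 20 weeks, 2 and 7 in nodules at 14 weeks and 1 and 4 at 20 weeks. Among all genes these were 7.29% and 0.620%, 13.1% and 2.10%, 4.89% and 0.333%, 14.2% and 4.49%, and 13.4% and 3.98%. The higher member was Fcnb in NT liver at 8 weeks, and Cd55 in NT liver at 14 weeks and in 20-week nodules. In 14-week nodules the higher members were Cd55 and C5ar1. The tests of Fcnb at 8 weeks and of Cd55 are not given as support, for the reason stated above, which leaves C5ar1. With no fold threshold, 12 members were lower at 8 weeks, 7 higher at 14 weeks and 4 lower at 20 weeks in NT liver (15.4%, 29.4% and 10.9% of all genes). Leaving out the rats numbered F gave 1 member higher in NT liver and 3 in nodules at 20 weeks (12.4% and 22.9% of all genes), 1 higher and 9 lower for the interaction of 14 and 8 weeks (4.98% and 4.54%), and 4 higher for that of 20 and 14 weeks (0.815%), where DESeq2 called 2 (1.05%). Nodule 1 alone gave 3 higher at 14 weeks and nodule 2 alone 4 higher at 20 weeks (22.4% and 22.3% of all genes). Leaving out 1 rat at a time, members higher and lower were 4 to 8 and 2 to 5 in NT liver at 8 weeks, 2 to 6 and 8 to 13 at 14 weeks, 1 to 7 and 2 at 20 weeks, 3 to 7 and 18 to 19 in nodules at 14 weeks, 1 to 8 and 12 to 16 in nodules at 20 weeks, 0 to 1 and 1 to 11 for the interaction of 14 and 8 weeks, and 0 to 9 and 0 for that of 20 and 14 weeks. The share of all genes called lower moved too with 1 rat left out. In NT liver it was 3.53% to 9.15% at 8 weeks, 8.82% to 11.6% at 14 weeks and 3.25% to 4.92% at 20 weeks. In nodules it was 12.6% to 15.7% at 14 weeks and 13.3% to 17.5% at 20 weeks. For the interaction of 14 and 8 weeks it was 2.87% to 9.20%. For that of 20 and 14 weeks 0.106% to 2.42% of all genes were called higher. What caused these shifts was not tested.

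Between nodules and NT liver at 20 weeks, where no member was called without pairing, DESeq2 called 5 lower (1.48% of all genes), the fit of all 8 groups 5 (2.53%), nodule 1 alone 1 (0.925%), and leaving out 1 rat 0 to 4 (0% to 1.64%). The replicate block (rat) gave 1 higher and 8 lower, and within that blocked fit nodule 1 alone gave 0 higher (512 of all 11130 genes), nodule 2 alone 2 lower (3.41%), and leaving out 1 rat 3 to 13 lower (2.80% to 7.93%). The block changed no call at 14 weeks. Members near or under 1 CPM in at least some groups (Cd55, Mbl2, Fcnb and C3ar1) had the fewest counts, and Cd55 could not be tested at 8 and 20 weeks in NT liver.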
